A study of Mus musculus with 12 samples.

Results

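The transcripts described here are those of the enzymes of glycolysis, of the steps that carry pyruvate into the tricarboxylic acid (TCA) cycle, of that cycle, and of the pentose phosphate pathway. The members were taken by gene name from a list of 43 symbols, which matched 44 of the 55401 gene rows, because *Aldoa* names 2 rows. All 44 rows were among the 25771 genes with enough reads for a test. RNA had been sequenced from *Pax7*-ZsGreen+ cells, the stem cells of muscle called satellite cells, sorted from the hind limbs of adult mice. Each mouse was CXCR4 FL/FL and carried the Pax7-ZsGreen reporter, and each was given tamoxifen at 80 mg/kg on 5 days. Mice called KO also carried Pax7-creERT2, so that the floxed allele was open to deletion in cells that express *Pax7*, and mice called WT had no cre. Freshly sorted cells are called quiescent (4 libraries per genotype), and cells kept overnight in growth medium after the sort are called activated (2 libraries per genotype). The sources used here do not say how many mice stand behind a library, so p-values measure the spread between libraries. Coordinates are on GRCm38.

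Glycolysis splits glucose into pyruvate in the cytosol. Hexokinase, phosphofructokinase and pyruvate kinase run its steps that are hard to reverse, and lactate dehydrogenase turns pyruvate into lactate. Pyruvate enters the mitochondrion through the pyruvate dehydrogenase complex, which pyruvate dehydrogenase kinases switch off, and its carbon is burned in the TCA cycle. The pentose phosphate pathway leaves glycolysis at glucose 6-phosphate and yields NADPH and the ribose of nucleotides. Several steps are made by isoenzymes from separate genes, and muscle fibres use their own forms, among them *Pgam2*, *Eno3* and *Pfkm*. Quiescent satellite cells are small cells with little metabolic activity, and they grow before their first division.

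Levels are in CPM, counts per 1000000 of a library's total after TMM scaling in edgeR. The quiescent libraries held 12775593 to 23717013 reads on genes and the activated libraries 3172164 to 5427280, and 1 ribosomal RNA gene took 11.5% to 40.3% of the latter and under 1% of each quiescent library. The targeted gene *Cxcr4* had 61.2, 59.1, 89.6 and 112 CPM in quiescent WT and 17.6, 21.2, 12.5 and 17.1 CPM in quiescent KO libraries, 33.3 and 14.4 CPM in activated WT and 5.39 and 13.7 CPM in activated KO libraries. The satellite cell markers *Pax7*, *Myf5*, *Myod1*, *Vcam1*, *Itga7*, *Cdh15*, *Calcr* and *Sdc4* summed to 4529 to 7378 and 4735 to 7945 CPM in quiescent WT and KO, and 2506 to 3208 and 2306 to 3511 CPM in activated WT and KO libraries, and 6 of these 8 fell with culture in WT and 7 in KO. Markers of mature muscle fibre summed to 331 to 772 CPM in quiescent WT, 424 to 1119 in quiescent KO, 8108 to 18029 in activated WT and 10983 to 19863 in activated KO libraries. Of its 13 genes 12 had enough reads, and all 12 rose in both genotypes (*Tnnc2* did not have enough). Of 8 endothelial markers, 3 fell in WT and 2 in KO, with sums of 539 to 1322 and 294 to 1428 CPM in quiescent WT and KO, and 127 to 778 and 134 to 414 CPM in activated WT and KO libraries. Of 7 fibroadipogenic markers, 3 fell in each genotype and 1 rose in KO, with sums in the same order of 1325 to 2009, 759.7 to 3536, 326 to 787 and 381 to 646 CPM. Of 8 blood cell markers, 4 fell in WT and 6 in KO, with sums of 107 to 268, 115 to 521, 42.1 to 49.9 and 53.9 to 82.6 CPM. Over all genes tested, 11.5% rose and 18.3% fell in WT, and 13.3% rose and 20.4% fell in KO. The share of endothelial markers that fell in KO lay near this, and counts of 7 or 8 are too small to set beside such shares closely. Genes of the Y chromosome summed to 358 to 659.8 CPM in quiescent KO and 451 to 620.3 CPM in quiescent WT libraries, against at most 2.51 CPM in any activated library, while *Xist* stood at 451 to 817 CPM in activated and at most 7.17 CPM in quiescent libraries. The quiescent libraries thus had the sex-linked transcripts of males and the activated libraries those of females, so the states did not come from the same mice. Sex and state coincide in all libraries, so a part of sex in the results on state cannot be told apart. In bulk libraries, fewer cells of a type and less RNA per cell cannot be told apart either.

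The promoters of *Pgam2*, *Ldha* and *Pgk1*, members that rose together in culture, are shown first, since their enzymes are a muscle form, the step that makes lactate and a step that yields ATP. Each is the 250 bases before the RefSeq transcription start on GRCm38.p6, and capitals mark ACGTG (the core of the hypoxia response element), CACGTG (the E-box bound by Myc, which holds an ACGTG on each strand) or CAGCTG (an E-box of muscle regulatory factors), searched on both strands.
Pgam2 chr11:5803797-5804046 (- strand): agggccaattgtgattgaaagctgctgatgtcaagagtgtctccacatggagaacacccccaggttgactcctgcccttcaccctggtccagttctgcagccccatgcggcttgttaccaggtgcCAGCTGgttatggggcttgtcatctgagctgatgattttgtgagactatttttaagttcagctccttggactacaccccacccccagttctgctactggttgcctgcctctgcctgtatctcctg
Ldha chr7:46845554-46845803 (+ strand): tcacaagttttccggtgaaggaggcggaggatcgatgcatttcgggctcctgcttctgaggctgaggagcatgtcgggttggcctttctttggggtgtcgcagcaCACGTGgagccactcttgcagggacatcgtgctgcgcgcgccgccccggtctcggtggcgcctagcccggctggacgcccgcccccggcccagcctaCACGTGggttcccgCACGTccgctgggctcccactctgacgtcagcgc
Pgk1 chrX:106186850-106187099 (+ strand): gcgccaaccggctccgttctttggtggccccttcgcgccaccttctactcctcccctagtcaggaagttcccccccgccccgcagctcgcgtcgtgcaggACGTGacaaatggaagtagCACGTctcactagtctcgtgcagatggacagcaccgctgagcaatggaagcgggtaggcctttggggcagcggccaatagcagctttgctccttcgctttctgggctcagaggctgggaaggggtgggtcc
*Ldha* held CACGTG at 2 places and a further ACGTG (printed as CACGT, its other strand), *Pgk1* held ACGTG on each strand, and *Pgam2* held CAGCTG at 1 place. None of these windows overlaps an annotated exon, and that of *Ldha* lies inside the annotated gene, since some of its transcripts start farther upstream. RefSeq promoters were found for 41 of the 43 symbols. ACGTG was in the promoters of 14 of these 41 genes (34.1%), against 18.5% of the 27025 genes with a promoter, and CACGTG in 5 (12.2% against 6.86%). CAGCTG was found in 4 (9.76% against 14.7%), the antioxidant response core TGACNNNGC in 5 (12.2% against 11.5%) and TATAAA in 0 (0% against 14.3%). Only 1 form of the MEF2 site was searched, with outer triplets CTA and TAG and any bases between. It was in 1 (2.44% against 3.70%). Runs ending in TAA were not counted, and the *Pgam2* window holds CTA and TAA at the same spacing, in small letters. The count thus does not show which promoters lack a MEF2 site. A match is a run of letters and not a bound site, and the genes set beside the members were not matched in base composition or expression. Counted by window, ACGTG was in 22 of the 61 windows of members (36.1%), in 9 of the 33 windows of members that rose in WT (27.3%) and in 16.6% of all 32851 windows.

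Overnight culture was followed by a rise of the glycolytic transcripts in both genotypes. In WT, 25 of 44 members passed an adjusted p of 0.05 in edgeR's quasi-likelihood test, 24 higher and 1 lower, where 29.8% of all genes tested passed (11.5% higher and 18.3% lower). In KO, 28 of 44 passed, 27 higher and 1 lower, where 33.7% of all genes passed (13.3% higher and 20.4% lower). The 25 members that passed in WT all passed in KO with the same sign, and 16 passed in neither. *Eno1b*, *Pdk1* and *Sord* passed in KO and not in WT (*Eno1b* also in WT in some other fits), but the difference between genotypes in this change passed for none of these 3. The median log2 fold change of the members was 1.13 in WT and 1.19 in KO, against -0.92 and -0.96 over all genes tested. With the ribosomal RNA gene set aside, members took 0.459% to 0.553% of the reads in quiescent libraries and 1.30% to 1.73% in activated libraries. Scaling to total reads without that gene raised the median of all genes by 0.28 in WT and 0.22 in KO on the log2 scale, and turned the split of all calls from 2956 higher and 4718 lower to 3870 higher and 3403 lower in WT, and from 3434 and 5259 to 4159 and 4113 in KO. Under that scaling 27 members were higher and 1 lower in WT, and 28 higher and 1 lower in KO.

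**Figure D1:**
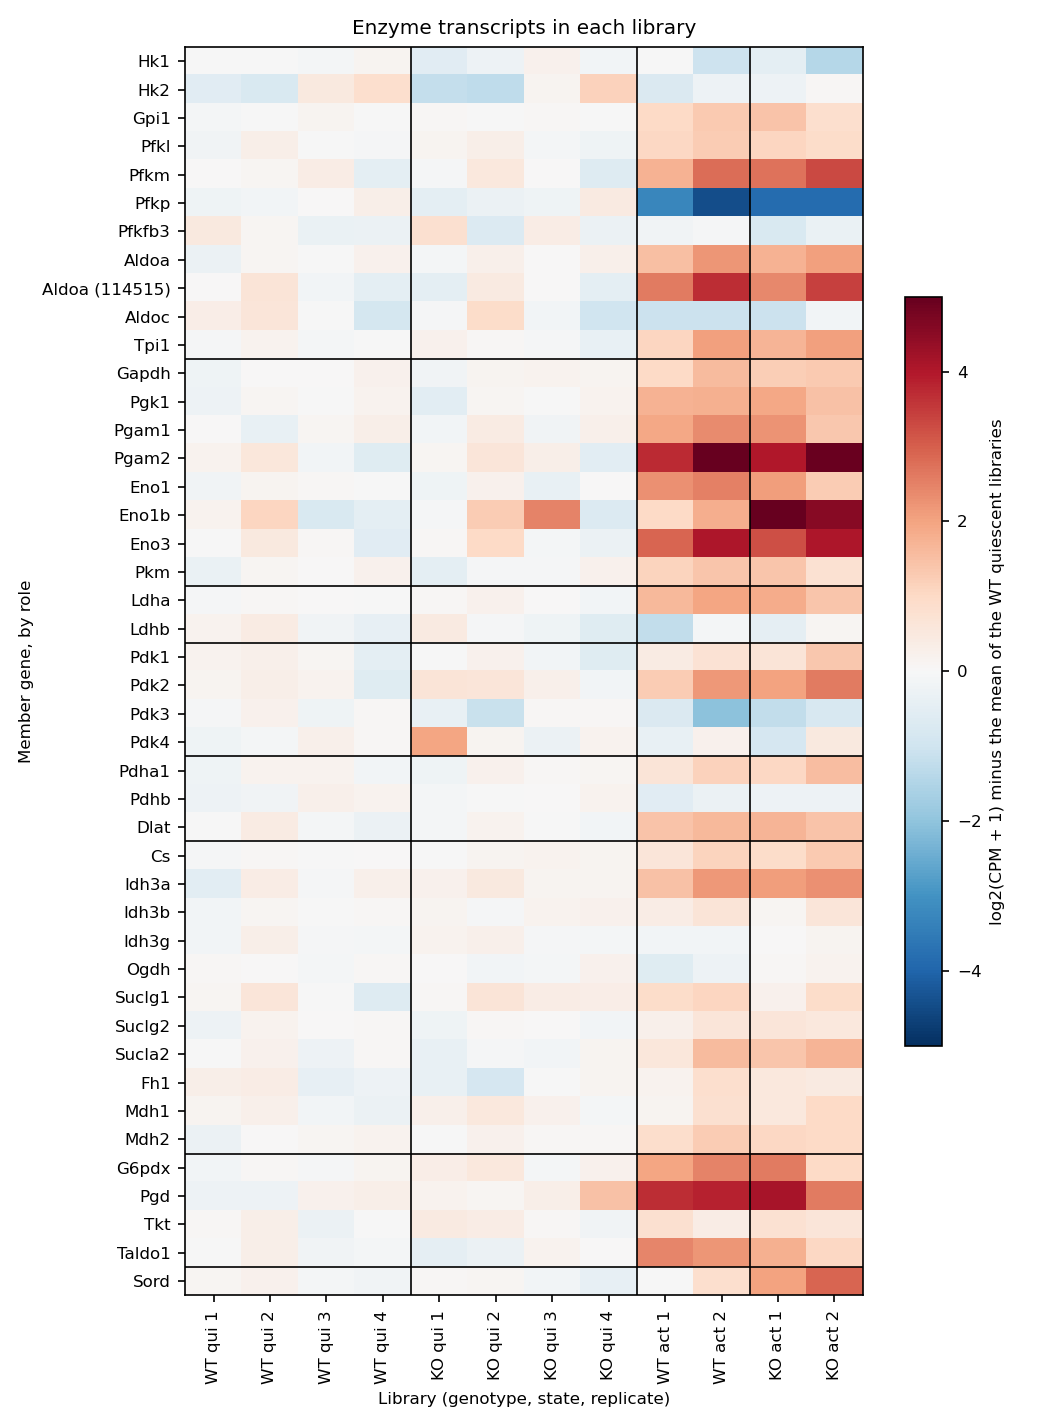
Level of each member in each of the 12 libraries, as log2(CPM + 1) minus the mean of the quiescent WT libraries (colour scale from -5 to 5), with members in rows by role and libraries in columns (qui, quiescent; act, activated). The activated columns are red for most rows of glycolysis, and the row of *Pfkp* is blue in all 4 of them.

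Of the 11 members of upper glycolysis, which turns glucose into triose phosphate, 6 rose and 1 fell in each genotype. *Pfkm* (chromosome 15, 98092589 to 98132451), the muscle form of phosphofructokinase, had 31.0, 32.4, 39.8 and 21.8 CPM in the quiescent WT libraries and 29.4, 44.5, 30.9 and 19.1 CPM in the quiescent KO libraries. It had 104 and 218 CPM in the activated WT libraries and 206 and 312 CPM in the activated KO libraries. Each activated library lay above each quiescent library, and the log2 fold change was 2.36 in WT (SE 0.33, adjusted p = 1.94e-05) and 3.06 in KO (SE 0.33, adjusted p = 9.25e-07). *Pfkp* (chromosome 13, 6579768 to 6648777), the platelet form of the same enzyme, was the member that fell. It had 237, 246, 279 and 339 CPM in the quiescent WT libraries and 192, 219, 233 and 369 CPM in the quiescent KO libraries, against 27.3 and 11.8 CPM in the activated WT libraries and 18.2 and 18.0 CPM in the activated KO libraries. Its log2 fold change was -3.77 in WT (SE 0.38, adjusted p = 5.84e-07) and -3.81 in KO (SE 0.38, adjusted p = 4.6e-07), and in WT it was -4.46 without activated replicate 1. Per kilobase of exon it moved from rank 16 of 44 in quiescent WT to rank 42 in activated WT libraries. *Pfkl*, the liver form, rose by 1.18 in WT and 0.99 in KO on the log2 scale.

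*Aldoa* (chromosome 7, 126795234 to 126800751), the aldolase of muscle, had the highest level per kilobase of exon of all members in each group. It had 227 ± 32.6 CPM per kb in quiescent WT and 849 ± 289 in activated WT libraries (SD, n = 4 and 2), with *Gapdh* at rank 2. Ranks per kilobase depend on the annotated exon length, which was 2911 bases for *Aldoa* and 4133 for *Gapdh*. The log2 fold change of *Aldoa* was 1.90 in WT and 1.81 in KO. A second row named *Aldoa* (ENSMUSG00000114515; chromosome 7, 126800790 to 126809108) lies directly upstream of it on the same strand. This row had 1.77, 3.26, 1.49 and 0.963 CPM in the quiescent WT libraries and 0.991, 2.80, 1.79 and 0.944 CPM in the quiescent KO libraries. In culture it had 15.7 and 35.0 CPM in the activated WT libraries and 13.6 and 28.7 CPM in the activated KO libraries, all above the quiescent libraries, with a log2 fold change of 3.75 in WT and 3.71 in KO (3.14 without WT activated replicate 2 and 3.08 without KO activated replicate 2). *Gpi1*, which interconverts glucose and fructose 6-phosphate, rose by 1.16 in WT and 1.13 in KO, and *Tpi1*, the triose phosphate isomerase, by 1.64 in WT and 1.91 in KO. Without KO activated replicate 1, the rises of *Gpi1* (0.83, adjusted p = 0.0700) and *Pfkl* (0.91, adjusted p = 0.0601) in KO no longer passed. *Aldoc*, the brain form of aldolase, was counted with 0 reads in 3 of the 4 activated libraries and stood at 0.0472 to 3.01 CPM in quiescent libraries. In activated WT libraries, where both were at 0, 3 reads over the group allow up to 0.357 CPM, 3.51-fold lower than the mean of the quiescent WT libraries. This limit covers counting error only and not the spread between libraries. The test of *Aldoc* in WT did not pass (adjusted p = 0.0809 in edgeR's test), although it did in some other fits, DESeq2 among them.

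Neither hexokinase, which traps glucose as its 6-phosphate, passed. *Hk2* (chromosome 6, 82725025 to 82774454), the inducible form of muscle, had 135, 119.8, 284 and 357 CPM in the quiescent WT libraries and 88.3, 83.8, 219 and 453 CPM in the quiescent KO libraries. The quiescent libraries numbered 3 and 4 were high in both genotypes, and the activated libraries, with 121 and 170.3 CPM in WT and 170.0 and 211 CPM in KO, lay inside their range. Its log2 fold change was -0.62 in WT (SE 0.55, adjusted p = 0.371) and -0.15 in KO (SE 0.53, adjusted p = 0.836). With the replicate number as a term it was 0.31 in WT and 0.99 in KO (adjusted p = 0.00475 in KO, edgeR's test). The numbers were not shown to pair the libraries, and the states did not come from the same mice. In that fit the high quiescent libraries 3 and 4 had no activated library of their number. *Hk1* had log2 fold changes of -0.44 in WT and -0.75 in KO. *Pfkfb3*, which makes the activator of phosphofructokinase, had -0.16 in WT and -0.69 in KO. In KO the fall of *Hk1* passed without quiescent replicate 1, and that of *Pfkfb3* without quiescent replicate 2.

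Of lower glycolysis, from triose phosphate to pyruvate, 7 of 8 members rose in WT and 8 of 8 in KO. *Pgam2* (chromosome 11, 5801640 to 5803733), the muscle phosphoglycerate mutase whose promoter is shown above, had 14.4, 19.2, 11.6 and 8.09 CPM in the quiescent WT libraries and 13.6, 20.02, 15.7 and 8.59 CPM in the quiescent KO libraries. It had 183 and 454 CPM in the activated WT libraries and 222 and 423 CPM in the activated KO libraries. With a log2 fold change of 4.58 in WT (SE 0.39, adjusted p = 8.66e-08) and 4.48 in KO (SE 0.39, adjusted p = 8.92e-08), it was the member with the largest rise in both. In WT it was 5.17 without activated replicate 1 and 3.84 without replicate 2. Per kilobase of exon, *Pgam2* moved from rank 20 of 44 in quiescent WT (15.9 ± 5.597 CPM per kb, SD, n = 4) to rank 3 in activated WT libraries (379 ± 228, SD, n = 2). *Eno3* (chromosome 11, 70657202 to 70662513), the muscle enolase, had 40.5, 58.2, 43.03 and 27.1 CPM in the quiescent WT libraries and 42.3, 82.0, 38.5 and 32.6 CPM in the quiescent KO libraries, and 309 and 684 CPM in the activated WT libraries and 387 and 682 CPM in the activated KO libraries. The states did not overlap, with a log2 fold change of 3.56 in WT and 3.45 in KO (2.93 in WT without activated replicate 2).

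The summed markers of mature fibre were 8108 and 18029 CPM in WT replicates 1 and 2 and 10983 and 19863 CPM in KO replicates 1 and 2, and in each genotype replicate 2 was also the higher library for *Pgam2*, *Eno3* and *Pfkm*. The part of fibre transcripts in these rises was not tested. Other members of lower glycolysis rose too. *Pgam1*, the widely expressed mutase, rose by 2.22 in WT and 1.82 in KO on the log2 scale, and *Pgk1*, the phosphoglycerate kinase, by 1.77 in WT and 1.76 in KO. *Gapdh* (chromosome 6, 125161715 to 125166467), which reduces NAD+ while oxidizing triose phosphate, had 785, 942, 923 and 1060.1 CPM in the quiescent WT libraries and 807, 1009.7, 1054 and 1013 CPM in the quiescent KO libraries. It had 1843 and 2775 CPM in the activated WT libraries and 2185 and 2295 CPM in the activated KO libraries, and its log2 fold change was 1.32 in WT (SE 0.25, adjusted p = 0.000423) and 1.21 in KO (SE 0.25, adjusted p = 0.000865). *Pkm*, the pyruvate kinase, rose by 1.24 in WT and 1.17 in KO, and in KO this was 0.83 without activated replicate 1 (adjusted p = 0.118 in edgeR's test).

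**Figure D2:**
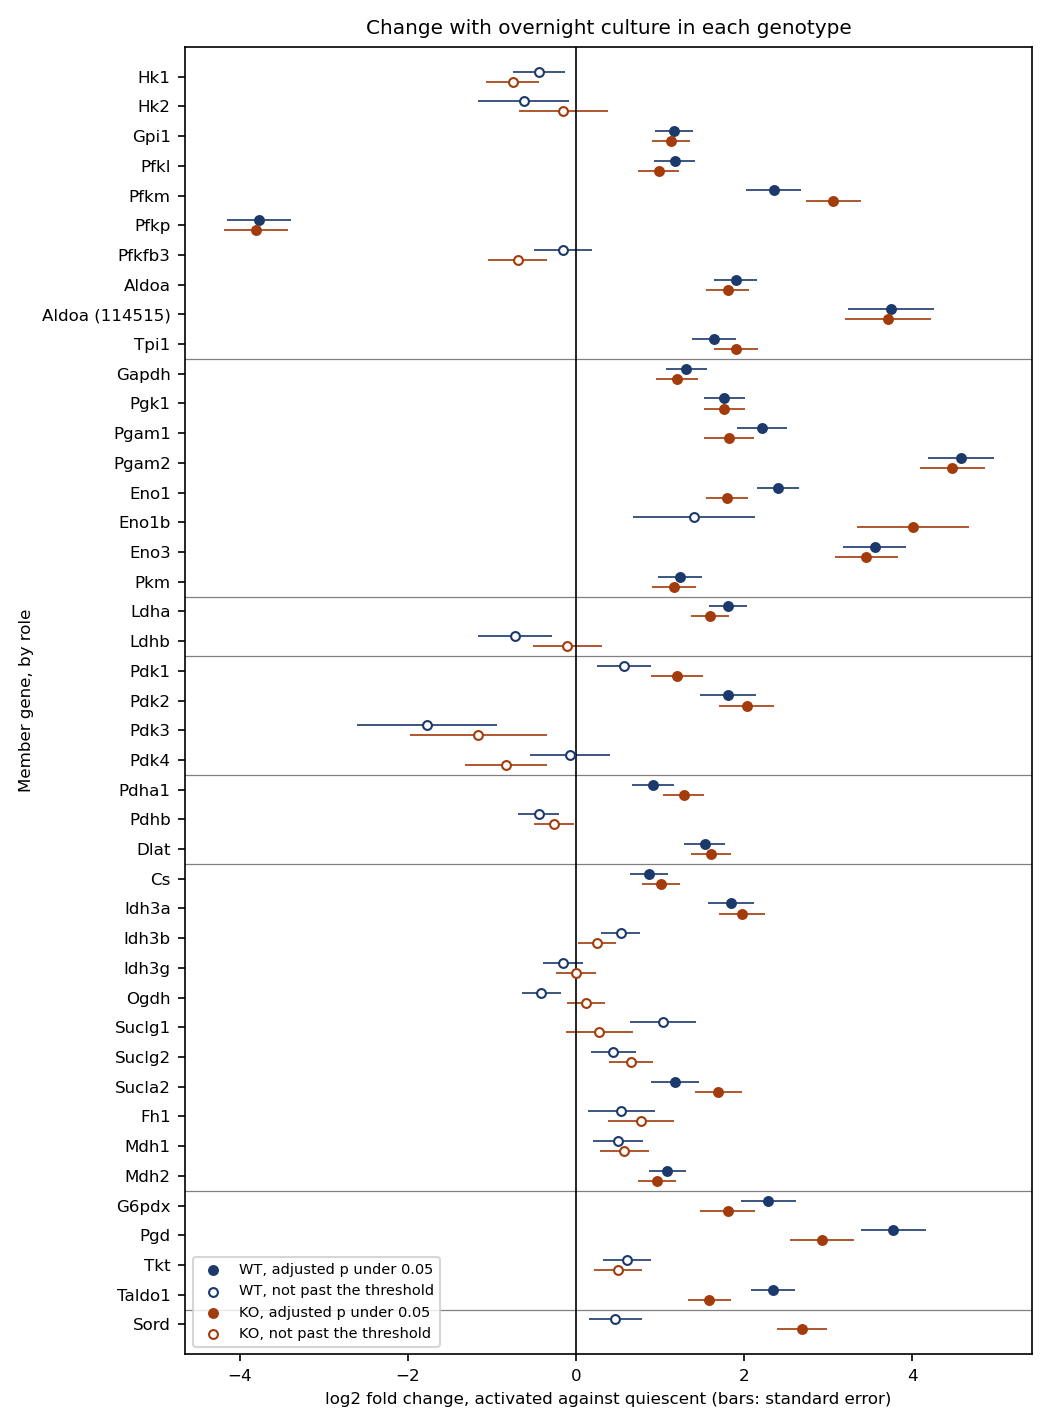
Log2 fold change of each member between activated and quiescent libraries in WT (blue) and KO (orange), with bars of 1 standard error and filled points for an adjusted p under 0.05. *Aldoc* is left out because it had no reads in the activated WT libraries. *Pgam2* lies farthest right at 4.58 and 4.48, and *Pfkp* farthest left at -3.77 and -3.81.

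*Ldha* (chromosome 7, 46841475 to 46855627), the lactate dehydrogenase subunit of glycolytic tissue, had 192, 209, 200.1 and 197 CPM in the quiescent WT libraries and 208, 233, 202 and 183 CPM in the quiescent KO libraries. It had 612 and 789 CPM in the activated WT libraries and 719 and 528 CPM in the activated KO libraries, each above each quiescent library, with a log2 fold change of 1.81 in WT (SE 0.23, adjusted p = 5.72e-06) and 1.59 in KO (SE 0.23, adjusted p = 2.12e-05). *Ldhb*, the subunit of heart, stood at 7.79 to 17.2 CPM in quiescent and 4.74 to 13.2 CPM in activated libraries and did not pass in either genotype (log2 fold change -0.73 in WT and -0.10 in KO).

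Among the pyruvate dehydrogenase kinases, *Pdk2* rose by 1.81 in WT and 2.03 in KO, and *Pdk1* by 1.20 in KO (adjusted p = 0.00542 in edgeR's test), where leaving out activated replicate 2 gave 0.82 (adjusted p = 0.182). In WT *Pdk1* had 0.57 (adjusted p = 0.174), and the difference between genotypes was 0.63 (SE 0.45, adjusted p = 0.919). *Pdk4* (chromosome 6, 5483351 to 5496309), the kinase induced by fasting and fatty acids, had 113, 121, 156 and 135 CPM in the quiescent WT libraries and 507, 143, 107 and 148 CPM in the quiescent KO libraries, and 99.2 and 152 CPM in the activated WT libraries and 71.4 and 183 CPM in the activated KO libraries. Quiescent KO replicate 1 stood apart from the others, the states overlapped, and the log2 fold change of -0.06 in WT (SE 0.48, adjusted p = 0.925) and -0.83 in KO (SE 0.49, adjusted p = 0.188) did not pass. *Pdk3* was the least abundant of the kinases, at 0 to 1.47 CPM in activated and 0.888 to 3.76 CPM in quiescent libraries. Of the pyruvate dehydrogenase complex, *Dlat*, its acetyltransferase, rose by 1.53 in WT and 1.61 in KO and *Pdha1*, a part of its first enzyme, by 0.92 in WT and 1.28 in KO (0.69 in WT without activated replicate 2, adjusted p = 0.168 in edgeR's test). *Pdhb*, the partner of *Pdha1* in that enzyme, had -0.44 in WT and -0.26 in KO and did not pass.

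Of the 11 TCA cycle members, malate dehydrogenases included, 4 rose in each genotype, the same ones in WT and KO, and 0 fell. *Idh3a*, the catalytic subunit of NAD-dependent isocitrate dehydrogenase, rose by 1.85 in WT and 1.98 in KO on the log2 scale, *Sucla2*, a subunit of succinyl-CoA synthetase, by 1.18 in WT and 1.70 in KO, *Mdh2*, the mitochondrial malate dehydrogenase, by 1.09 in WT and 0.96 in KO, and *Cs*, the citrate synthase that opens the cycle, by 0.87 in WT and 1.01 in KO. Without WT activated replicate 2, *Cs* (0.66, adjusted p = 0.153) and *Sucla2* (0.64, adjusted p = 0.242) did not pass in WT, and without KO activated replicate 2 *Cs* had 0.83 in KO (adjusted p = 0.0656). Of the other subunits of isocitrate dehydrogenase, *Idh3b* had 0.53 in WT and 0.25 in KO, and *Idh3g* had -0.16 in WT and 0.01 in KO. *Ogdh*, *Suclg1*, *Suclg2*, *Fh1* and *Mdh1* ran from -0.41 to 1.04 in WT and from 0.12 to 0.78 in KO, with none past the threshold in this fit (these are the oxoglutarate dehydrogenase, further subunits of succinyl-CoA synthetase, fumarase and the cytosolic malate dehydrogenase). In some other fits, DESeq2 among them, *Idh3b* and *Suclg1* passed in WT and *Suclg2* in KO. *Mdh1* passed in KO with libraries thinned to the smallest total. Summed over the 11 members, the cycle stood at 514, 593, 525 and 559 CPM in quiescent WT and 700.0 and 959.8 CPM in activated WT libraries, against 1493, 1864, 1776 and 1995 and 4482 and 6486 CPM for lower glycolysis. In KO the sums were 559, 582, 568 and 595 and 869.7 and 1022 CPM for the cycle, and 1446, 1917, 1872 and 1954 and 5424 and 5044 CPM for lower glycolysis.

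The pentose phosphate pathway rose at both dehydrogenases that make NADPH and at transaldolase. *G6pdx* (chromosome X, 74409483 to 74429194), the enzyme of its first step, had 19.1, 21.7, 20.3 and 23.1 CPM in the quiescent WT libraries and 26.5, 31.1, 19.3 and 24.3 CPM in the quiescent KO libraries, against 84.1 and 123 CPM in the activated WT libraries and 134 and 43.1 CPM in the activated KO libraries. Each activated library lay above each quiescent library, and the log2 fold change was 2.29 in WT (SE 0.32, adjusted p = 2.26e-05) and 1.81 in KO (SE 0.32, adjusted p = 0.00024). *Pgd* (chromosome 4, 149149991 to 149166771), the second dehydrogenase, had 31.8, 32.6, 44.6 and 47.6 CPM in the quiescent WT libraries and 43.3, 41.7, 47.6 and 109 CPM in the quiescent KO libraries. In culture it had 503 and 569 CPM in the activated WT libraries and 682 and 237 CPM in the activated KO libraries, with a log2 fold change of 3.77 in WT (SE 0.39, adjusted p = 6.65e-07) and 2.93 in KO (SE 0.38, adjusted p = 7.97e-06). *Taldo1* (chromosome 7, 141392199 to 141402968), the transaldolase of the branch without oxidation, had 37.7, 47.7, 34.3 and 35.4 CPM in the quiescent WT libraries and 27.8, 31.4, 43.5 and 38.5 CPM in the quiescent KO libraries, and 214 and 179.5 CPM in the activated WT libraries and 133 and 79.4 CPM in the activated KO libraries. Its log2 fold change was 2.35 in WT and 1.59 in KO. *Tkt*, the transketolase, stood at 14.4 to 25.1 CPM in quiescent and 23.2 to 31.5 CPM in activated libraries and did not pass (0.61 in WT and 0.50 in KO). It did pass in WT when scaled to total reads without the ribosomal RNA gene.

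KO activated replicate 2 was the lowest activated library for *G6pdx*, *Pgd* and *Taldo1*, and the summed pathway stood at 833 and 894 CPM in activated WT and 979.9 and 387 CPM in activated KO libraries, against 107 to 188 CPM in quiescent libraries. In KO, *G6pdx* had a log2 fold change of 0.77 (adjusted p = 0.138 in edgeR's test) without activated replicate 1 and 2.42 without replicate 2, and *Pgd* had 1.97 and 3.51.

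**Figure D3:**
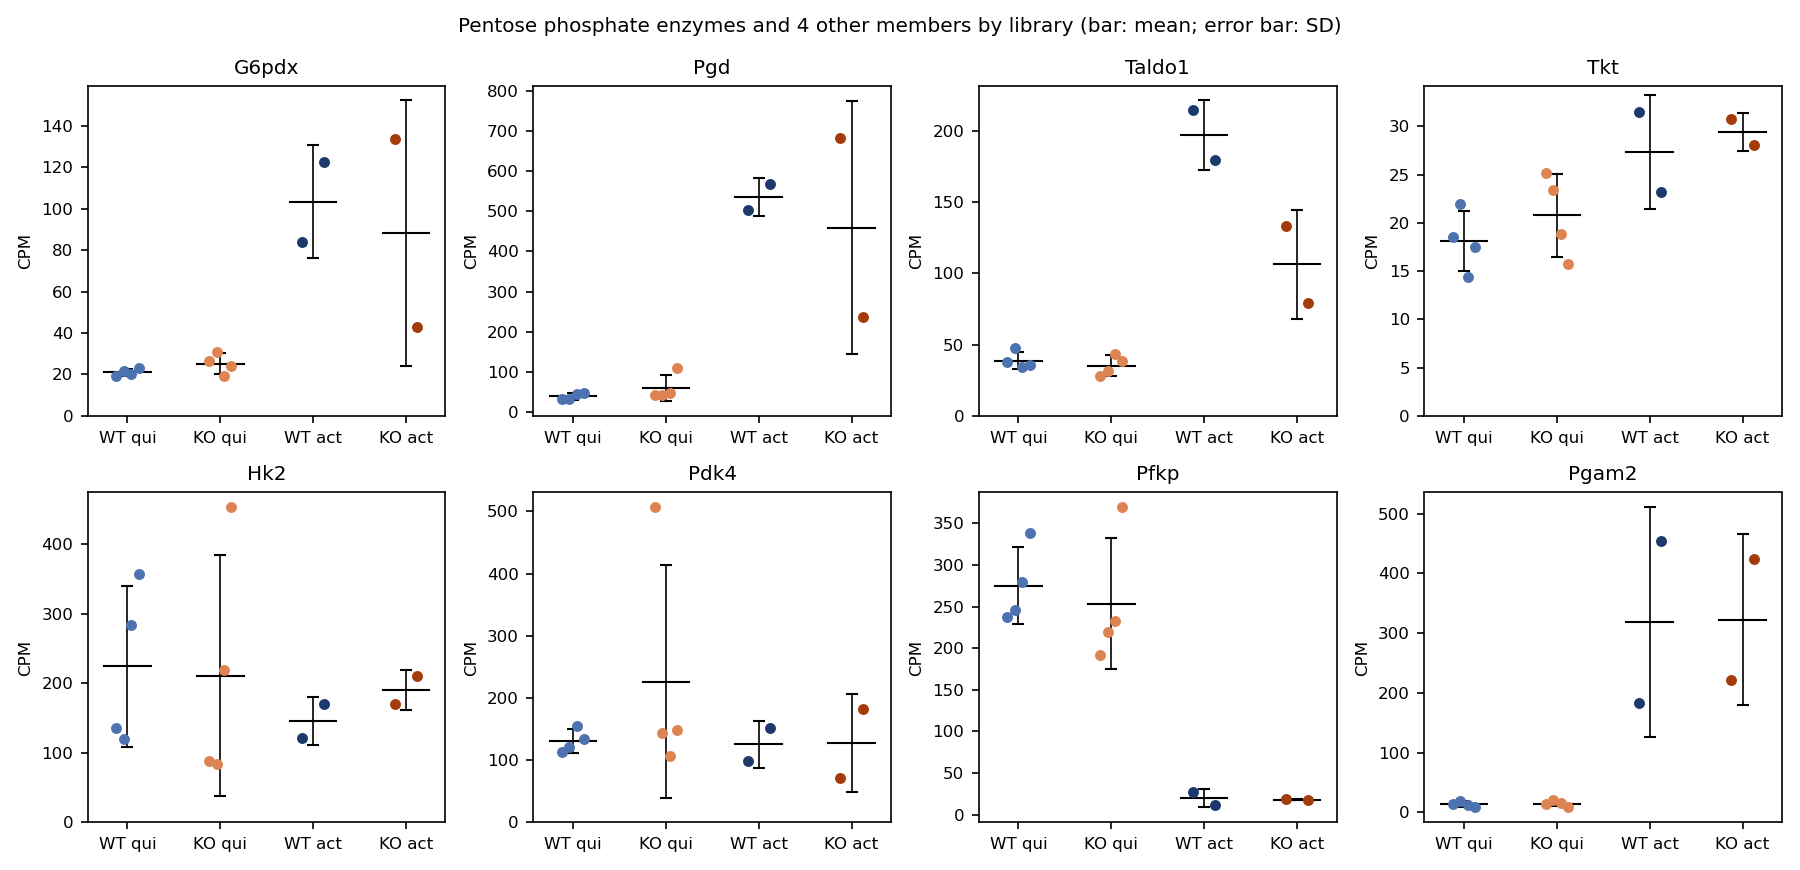
CPM of *G6pdx*, *Pgd*, *Taldo1*, *Tkt*, *Hk2*, *Pdk4*, *Pfkp* and *Pgam2* in each library (points), with the group mean and SD (n = 4 quiescent and n = 2 activated libraries per genotype). The activated KO points lie far apart for *G6pdx* (134 and 43.1 CPM) and *Pgd* (682 and 237 CPM).

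The members on the X chromosome are *Pgk1*, *Pdk3*, *Pdha1*, *Idh3g* and *G6pdx*, and 3 of these 5 passed in each genotype. Of the 39 members on autosomes, 22 passed in WT and 25 in KO. Over all genes tested, on any chromosome, 29.8% passed in WT and 33.7% in KO. The shares of all genes by chromosome are not given, and 5 members are too few to set beside 39. Whether sex had a part was not tested.

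A difference between groups in the ratio of a pair of isoenzymes depends neither on gene length nor on library scaling, so 11 pairs were compared as log2 ratios of reads, with 0.5 added to each count. The level of such a ratio does depend on length, so it is not a ratio of transcript levels. Between states, 9 of 11 pairs passed an exact permutation test (two-sided, libraries permuted within genotype, 225 arrangements, Benjamini-Hochberg over the pairs), and in 7 of them no activated library overlapped a quiescent one. The ratio of *Pfkp* to *Pfkm* changed by more than that of any other of the 11 pairs. It was 2.94, 2.92, 2.81 and 3.95 in quiescent WT and 2.71, 2.30, 2.91 and 4.27 in quiescent KO, and -1.93 and -4.18 in activated WT and -3.49 and -4.10 in activated KO libraries, a mean difference of -6.53 (adjusted p = 0.00698, exact permutation). This p comes from 0.00444, the smallest that 225 arrangements can give. *Pfkp* thus held 89.9% of the reads of this pair in quiescent WT and 14.6% in activated WT libraries, and 89.6% and 6.47% in KO. *Pfkp* has 13401 bases of exon and *Pfkm* 3340. Per kilobase of exon, *Pfkp* stood at 20.5 ± 3.43 CPM and *Pfkm* at 9.36 ± 2.21 CPM in quiescent WT (SD, n = 4), against 1.46 ± 0.816 and 48.1 ± 24.1 CPM in activated WT libraries (SD, n = 2). *Pgam2* to *Pgam1* moved the other way, from 0.11, 0.93, -0.28 and -1.01 in quiescent WT and 0.18, 0.17, 0.42 and -0.90 in quiescent KO to 1.78 and 2.64 in activated WT and 1.73 and 3.59 in activated KO libraries, a mean difference of 2.48 (adjusted p = 0.00698, exact permutation).

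The other pairs whose states did not overlap were *Pfkl* to *Pfkm* (mean difference -1.60), *Ldhb* to *Ldha* (-2.09), *Pdk1* to *Pdk2* (-1.02), *Pdk4* to *Pdk2* (-2.31) and *Suclg2* to *Sucla2* (-0.85), all at an adjusted p of 0.00698 (exact permutation). The ratio of *Eno3* to *Eno1* plus its copy *Eno1b* rose by 1.22 (adjusted p = 0.0122, exact permutation), although quiescent KO replicate 2 (-0.87) lay above replicate 1 of activated WT (-0.92) and of activated KO (-0.98). That of *Aldoc* to *Aldoa* fell by 3.67 (adjusted p = 0.0272, exact permutation), but rests on the added value where *Aldoc* had 0 reads, and it did not pass without KO activated replicate 1 (a fall of 3.00, adjusted p = 0.114, exact permutation). *Hk2* to *Hk1* and *Eno1b* to *Eno1* did not pass (adjusted p = 0.329 and 0.323, exact permutation). Between genotypes in quiescent libraries 0 of the 11 pairs passed, and 1 had an unadjusted p under 0.05. This was *Pdk1* to *Pdk2*, at 0.65, 0.58, 0.54 and 0.74 in WT and -0.10, 0.20, 0.20 and 0.12 in KO. These groups did not overlap, at the smallest p that 4 against 4 libraries can give (0.0286, adjusted p = 0.314, exact permutation).

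**Figure D4:**
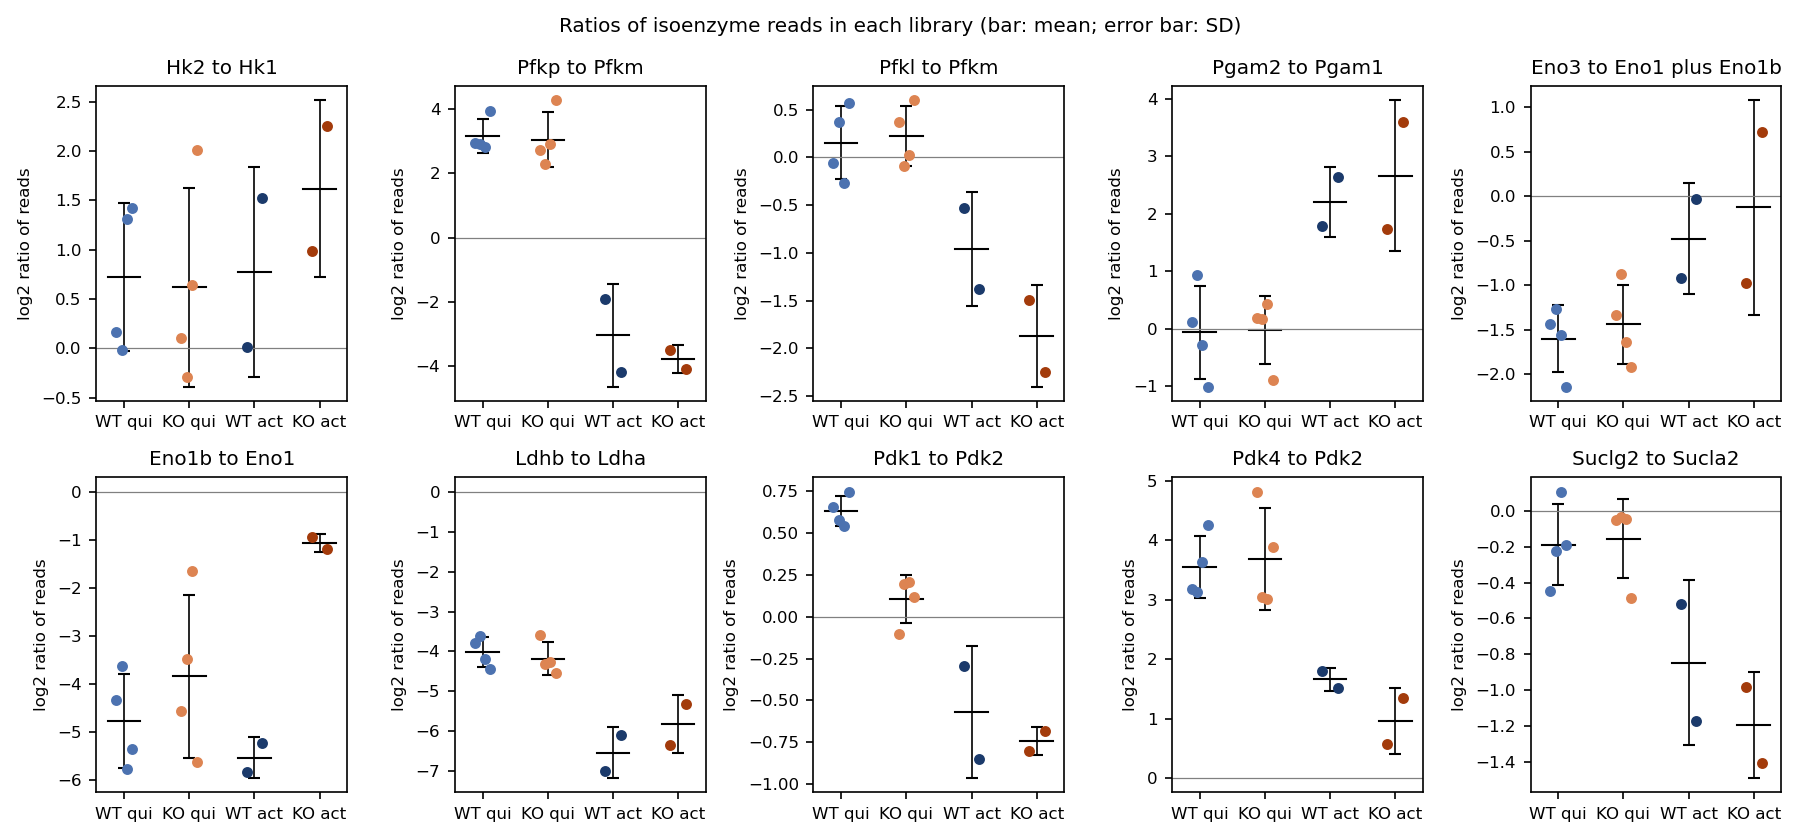
Log2 ratio of reads for 10 pairs of isoenzyme genes in each library (points), with the group mean and SD (n = 4 quiescent and n = 2 activated libraries per genotype) and a grey line where both genes have equal reads (log2 ratio of 0), which is not where their levels per length are equal. *Pfkp* to *Pfkm* drops below the line in all activated libraries, and *Pgam2* to *Pgam1* lies above 1.7 in each of them.

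In quiescent cells, 0 of 44 members passed between KO and WT in edgeR's test, where 0.0155% of all genes passed. On simulated data this comparison recovered 23% of true log2 changes of 1 and 88% of changes of 2, so smaller changes could be missed. At an unadjusted p under 0.05 stood 1 member, *Eno1b*, against 1.74% of all genes, and DESeq2 called 0 members. There was no member (0 of 44) whose 4 KO libraries all lay on 1 side of its 4 WT libraries, where 1.7% of all genes had such groups. Log2 fold changes ran from -0.37 (*Pdk3*) to 1.24 (*Eno1b*), with a median of 0.03 against 0.02 for all genes. The value of *Eno1b* rests on quiescent KO replicate 3. It was 0.29 without that library and 1.85 without WT quiescent replicate 2, and it passed in 0 of 12 fits that left out 1 library. It passed without the filter on low counts (1.28, adjusted p = 0.00166 in edgeR's test).

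The study had already listed *Sord* and *Eno1b* as differing between activated KO and WT cells in these data. Their values here are thus no independent result. On simulated data, the comparison of activated KO with WT recovered 2% of true log2 changes of 1 and 44% of changes of 2. In activated libraries 1 of 44 members passed between KO and WT, where 0.0504% of all genes passed. This was *Sord* (chromosome 2, 122234749 to 122265340), sorbitol dehydrogenase, which turns sorbitol into fructose in the polyol pathway. It had 15.7, 16.9, 13.5 and 12.6 CPM in the quiescent WT libraries and 15.3, 15.7, 13.3 and 10.8 CPM in the quiescent KO libraries. It had 14.4 and 27.1 CPM in the activated WT libraries and 62.4 and 115 CPM in the activated KO libraries. The activated KO libraries lay above all others, while activated WT replicate 1 lay inside the quiescent range and replicate 2 above it. The log2 fold change of KO against WT was 2.13 (SE 0.38, adjusted p = 0.048 in edgeR's test). It lay close to the threshold and did not pass in 5 of 10 other fits, with adjusted p from 0.0515 to 0.304, nor in 9 of 12 fits that left out 1 library. Its value was 1.61 without WT activated replicate 1 (adjusted p = 0.607) and 1.56 without KO activated replicate 2 (adjusted p = 0.407), and it passed without KO quiescent replicate 4, WT activated replicate 2 or KO activated replicate 1. Between states, *Sord* rose by 2.69 in KO (SE 0.29, adjusted p = 1.14e-06) and had 0.47 in WT (SE 0.32, adjusted p = 0.252). The test of this difference itself gave 2.22 (SE 0.45, adjusted p = 0.174 in edgeR's test), which did not pass, although it did with DESeq2 (adjusted p = 0.0137), without the filter on low counts (0.00177), without WT activated replicate 2 (0.0223) and without KO activated replicate 1 (0.0249).

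Besides *Sord*, 3 members had an unadjusted p under 0.05 in activated libraries, 4 in all (9.09%, against 8.37% of all genes). *Taldo1* had a log2 fold change of -0.89 (SE 0.31, adjusted p = 0.397 in edgeR's test), with both KO libraries below both WT libraries. *Eno1* had -0.67 (SE 0.30, adjusted p = 0.582) and *Eno1b* 3.84 (SE 0.89, adjusted p = 0.137). *Eno1b* passed with the 2 activated groups fitted alone (3.79, adjusted p = 0.0302) and without the filter on low counts (3.83, adjusted p = 9.79e-17), and in 0 of 12 fits that left out 1 library (adjusted p from 0.068 to 0.757). Among the latter its value ran from 3.19 without KO activated replicate 1 to 4.21 without KO activated replicate 2. The groups did not overlap for 9 of 44 members (20.5%), where 24.7% of all genes did not. No member passed the test of a difference between genotypes in the change with culture, where 0% of all genes passed. At an unadjusted p under 0.05 stood 2 members, *Sord* and *Eno1b*, against 6.59% of all genes, and DESeq2 called 1, *Sord*. For *Eno1b* this difference was 2.60 (SE 1.02, adjusted p = 0.652 in edgeR's test), and 1.92 to 3.54 when 1 library was left out. It passed without the filter on low counts (2.55, adjusted p = 4.83e-05).

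*Eno1* (chromosome 4, 150236721 to 150248879) encodes the enolase of most tissues, and *Eno1b* (chromosome 18, 48045335 to 48048412) is annotated as its retrogene. Their transcripts were 99.5% identical over 99.4% of the *Eno1b* transcript, so reads could be counted on either, and how reads with several matches were treated is not given in the sources used here. *Eno1* had 105, 129.6, 124 and 117 CPM in the quiescent WT libraries and 102, 138, 91.4 and 121 CPM in the quiescent KO libraries. It had 574 and 682 CPM in the activated WT libraries and 501 and 287 CPM in the activated KO libraries, all above the quiescent libraries, with a log2 fold change of 2.40 in WT (SE 0.25, adjusted p = 8.08e-07) and 1.80 in KO (SE 0.25, adjusted p = 1.83e-05). *Eno1b* had 5.12, 10.5, 2.24 and 2.84 CPM in the quiescent WT libraries and 4.28, 12.2, 29.0 and 2.41 CPM in the quiescent KO libraries, and 9.97 and 18.0 CPM in the activated WT libraries and 262 and 125 CPM in the activated KO libraries. The activated KO libraries stood apart from the rest, and quiescent KO replicate 3 was the next highest. Its log2 fold change between states was 1.41 in WT (SE 0.73, adjusted p = 0.146) and 4.01 in KO (SE 0.66, adjusted p = 0.00011). In KO this was 4.96 without quiescent replicate 3 and 3.36 without activated replicate 1, and the values in KO passed in 12 of 12 fits that left out 1 library. In WT it ran from 1.03 to 2.04 over these fits and passed in 1 of 12, without quiescent replicate 2 (2.04, adjusted p = 0.0485 in edgeR's test). In WT it also passed without the filter on low counts (1.43, adjusted p = 0.0002) and with the WT groups fitted alone (1.48, adjusted p = 0.0469).

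Of the reads on both genes, *Eno1b* held 4.66%, 7.49%, 1.77% and 2.38% in quiescent WT, 4.02%, 8.14%, 24.1% and 1.95% in quiescent KO, 1.71% and 2.56% in activated WT and 34.3% and 30.4% in activated KO libraries. When both were summed, the level was 584 and 700.2 CPM in activated WT and 763 and 412 CPM in activated KO libraries, against 106 to 150.2 CPM in quiescent ones. The sum rose by 2.37 in WT (SE 0.25, adjusted p = 1.00e-06) and 2.23 in KO (SE 0.25, adjusted p = 1.67e-06) on the log2 scale in edgeR's test. Between KO and WT it had -0.13 (SE 0.30) in activated and 0.01 (SE 0.21) in quiescent libraries, with an adjusted p of 1 in each. The activated KO libraries thus stood apart in how reads were divided between the pair and overlapped the WT libraries in their sum. Per kilobase of exon, *Eno1b* stood at rank 35 of 44 in activated WT and rank 9 in activated KO libraries.

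**Figure D5:**
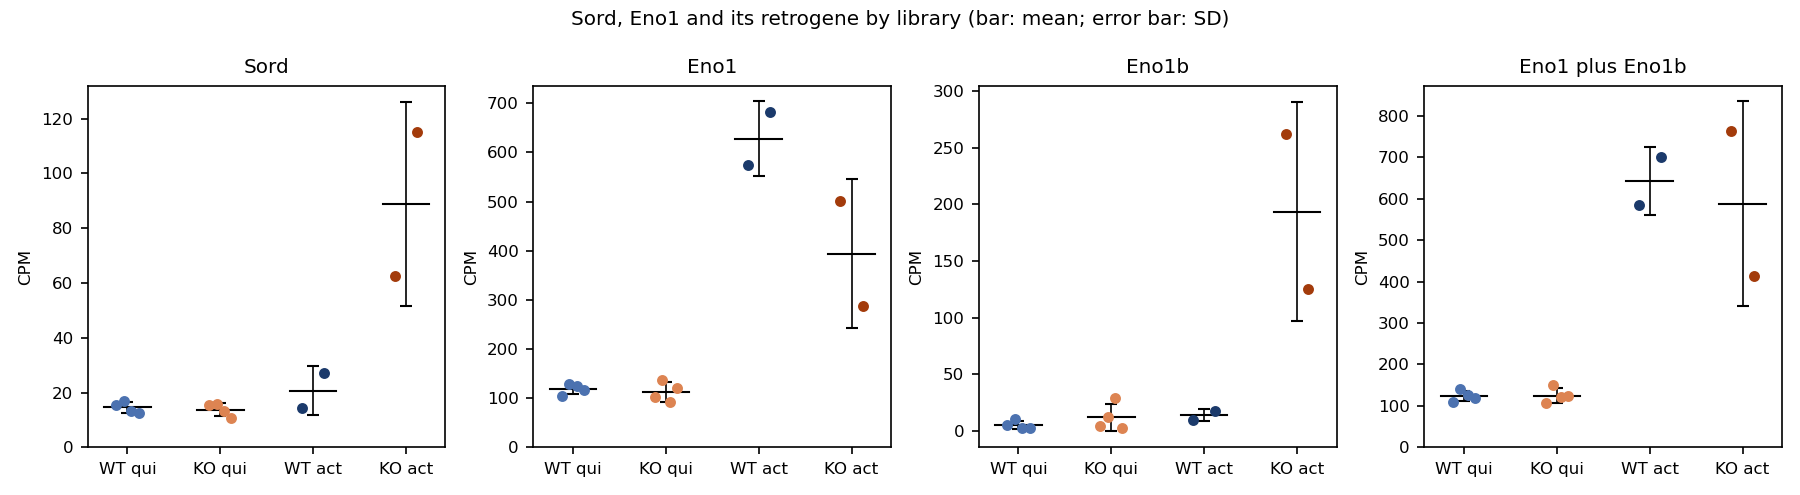
CPM of *Sord*, *Eno1*, *Eno1b* and the sum of *Eno1* and *Eno1b* in each library (points), with the group mean and SD (n = 4 quiescent and n = 2 activated libraries per genotype). The activated KO libraries stand apart for *Sord* (62.4 and 115 CPM) and *Eno1b* (262 and 125 CPM), and overlap the WT libraries in the sum.

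Near-identical copies were also counted for other members. Of the 44 members, 18 had at least 1 other gene row that matched at 90% identity over 80% of the copy. *Gapdh* had 170, which held 8.56% of the joint reads in quiescent WT and 2.51% in activated WT libraries. For *Ldhb*, whose copy is a processed pseudogene, these shares were 9.77% and 21.4%, and for *Sord* 4.90% and 7.98%, with 3.98% in activated KO libraries.

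Other enzymes of the same pathways were taken from lists, and their counts are read beside the shares of all genes given above for WT (11.5% higher, 18.3% lower) and KO (13.3% higher, 20.4% lower). Of 20 other glycolysis enzymes 18 were tested, of which 3 rose and 1 fell in WT, and 5 rose and 3 fell in KO. The share that rose in WT and the share that fell in KO lay near those of all genes, and the median log2 fold change was -0.77 in WT and 0.09 in KO, against -0.92 and -0.96 over all genes. *Pgp*, a phosphatase that clears phosphoglycolate, rose by 2.38 in WT and 2.33 in KO, and *Tigar*, a phosphatase that lowers fructose 2,6-bisphosphate, by 3.16 in WT and 3.31 in KO. Of 25 other enzymes of pyruvate and TCA metabolism, 9 rose and 3 fell in WT, and 13 rose and 3 fell in KO, among them *Me1*, the cytosolic malic enzyme that makes NADPH (3.41 in WT and 3.34 in KO), and *Sdhd*, a subunit of succinate dehydrogenase (2.12 in WT and 1.83 in KO). The median of this list was 0.56 in WT and 0.64 in KO. Of 12 other pentose phosphate and polyol enzymes, 3 rose and 2 fell in WT and 3 rose and 1 fell in KO, with medians of -0.33 and -0.20, and such counts of 12 are too small to set beside those shares closely. *Rpia*, the ribose 5-phosphate isomerase, rose by 1.31 in WT and 1.86 in KO. Of 9 enzymes of glycogen and glucose 1-phosphate, 5 rose in each genotype and 3 fell in WT and 2 in KO, with *Gbe1*, the branching enzyme, at 2.47 in WT and 2.48 in KO and *Pygm*, the glycogen phosphorylase of muscle, at 2.09 in WT and 1.82 in KO. Of these 64 genes tested, 0 passed between KO and WT in either state, in edgeR's test.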

How the data were processed

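RNA-seq had been run on poly(A) RNA of 12 libraries in 4 groups. The submitters' notes name Trim Galore 0.6.0, STAR 2.7.2a and DESeq2 1.34.0 on GRCm38.p6, and the study's methods state that reads were counted per gene with Rsubread on GENCODE. The deposited counts are whole, unnormalized reads per gene, made by the authors. How reads with several matches were treated is not given in the sources used here. A deposited FPKM table of 1 value per group was not used. Total counts per library run from 3172164 to 23717013, and the activated libraries, which are the shallower ones, are counted less precisely.

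Counts were fitted over all 4 groups in edgeR 4.0.16 (R 4.3.3) with filterByExpr, TMM factors and the quasi-likelihood test, with Benjamini-Hochberg adjustment over 25771 genes and calls at an adjusted p under 0.05. The 5 contrasts were activated against quiescent in each genotype, KO against WT in each state, and the difference of these. The fit was tested on simulated data with 100 changed genes for each size of change, drawn from genes above a minimum mean level. Far more genes passed between states in these data (7674 in WT), and the adjusted threshold depends on that number. The simulated shares for the states thus need not hold here. A true log2 change of 1 was recovered in 4% between states in WT, 23% between genotypes in quiescent and 2% in activated libraries. For a log2 change of 2 these shares were 60%, 88% and 44%. A member that did not pass is thus not shown to be unchanged. Alternatives were other scalings, filters and fits, DESeq2 1.42.0, thinning, a replicate term and leaving out each library. Isoenzyme ratios were tested by exact permutation in Python 3.11.15. Gene models are GENCODE M21, copies were found with blastn 2.17.0, and promoters are RefSeq's. The members and lists were chosen with earlier results of these data known. Values in every library are given, per contrast, for up to 8 called members with the largest log2 fold change, and for *Eno1*, *Eno1b*, *Sord*, *Gapdh*, *Hk2*, *Ldha*, *Pdk4* and *G6pdx*. Of the other lists, at most 3 genes each are named, by the smallest p in WT.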

Additional observations from a re-analysis of the deposited data

Results flagged for a closer look

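In 88 groups of 4 quiescent libraries (44 members in each genotype), the gap between the most extreme library and its neighbor was tested against the group's range (Dixon's 95% critical value), and 4 groups passed, where chance passes about 1 in 20. *Pdk4* had 507 CPM in KO quiescent replicate 1, against 107 to 148 CPM in the other quiescent KO libraries. *Pgd* had 109 CPM in KO quiescent replicate 4, against 41.7 to 47.6 CPM. *Cs* had 105 CPM in KO quiescent replicate 1, below 118 to 121 CPM in the others. *Idh3g* had 71.6 CPM in WT quiescent replicate 2, against 52.6 to 55.1 CPM. With 2 libraries per genotype, the activated groups could not be tested this way.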

How the results depend on the processing

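Of the results that answer a comparison (the counts of members, the sum of *Eno1* and *Eno1b* and the isoenzyme ratios), 415 recomputed values kept direction and side of the threshold, 30 changed sign, 19 moved and 1 lost its call. For named genes these were 1402 unchanged in this sense, 13 with a changed sign, 23 that lost and 12 that gained a call. Over all alternatives, the count of members that passed was 22 to 28 in WT and 25 to 30 in KO between states, 0 to 1 between genotypes in quiescent libraries, 0 to 2 in activated libraries and 0 to 2 for the difference of these.

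In quiescent libraries 1 member (*Eno1b*) passed between KO and WT without the filter on low counts. In activated libraries the count was 0 with DESeq2's size factors, with total counts without the ribosomal RNA gene, with a mean count of at least 10 and after thinning to the smallest total, and 2 without the filter. For the difference of these it was 2 without the filter and 1 with DESeq2. Leaving out 1 library gave 0 to 1 in both. Over all genes, 13 passed between KO and WT in activated libraries, against 334 without the filter, 144 with DESeq2, 211 without WT activated replicate 2, 59 without KO activated replicate 1, 23 with the replicate term, 20 in the robust fit, 8 with DESeq2's size factors, 6 after thinning, 3 with total counts or with the compared groups alone, 2 at a mean count of at least 10 and 0 without WT activated replicate 1 (2 to 9 without any other library). In quiescent libraries 4 passed, against 50 without the filter and 3 to 7 without 1 library, and for the difference 0, against 170 without the filter, 82 without WT activated replicate 2, 47 with DESeq2, 29 without KO activated replicate 1, 8 in the robust fit, 6 with the replicate term and 0 to 3 without any other library. The cause was not tested.

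Replicate numbers are shared between groups, but same-numbered WT and KO libraries did not deviate together in each pair, so they were not taken as paired. Correlations were 0.05, 0.12, -0.05 and 0.30 in quiescent libraries, against -0.21 to 0.08 for unlike numbers. In activated libraries same numbers gave -0.02 and unlike numbers 0.02, which with 2 libraries per group differ only in sign and cannot settle pairing. Total reads of quiescent WT and KO were close by number (17532019 and 17238391 for replicate 1, 12775593 and 13075208 for replicate 2). Whether same-numbered libraries share a batch is not given in the sources used here. With the replicate block 26 members passed in WT and 29 in KO between states. *Hk2* then had a log2 fold change of 0.31 in WT and 0.99 in KO, against -0.62 and -0.15 without the block. Quiescent and activated libraries of the same number did not come from the same mice.

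Values near 0 changed sign. *Hk2* in KO had 0.17 with total counts. *Pdk4* between states in WT had 0.0201 with DESeq2's size factors, 0.21 with total counts, 0.0227 at a mean count of at least 10, 0.0246 with DESeq2, 0.000206 with the compared groups alone and 0.0855 after thinning, against -0.06. The sum of *Eno1* and *Eno1b* between KO and WT in quiescent libraries had -0.00142 with upper-quartile factors and -0.0424 after thinning. Leaving out 1 library at a time gave *Hk2* -0.39 to 0.56 in KO and *Pdk4* -0.34 to 0.29 in WT between states, and the enolase sum -0.66 to 0.19 between genotypes in activated libraries, -0.0813 to 0.085 in quiescent libraries and -0.68 to 0.18 for the difference. Isoenzyme ratios of KO against WT in quiescent libraries ran from -1.39 to 0.62 for *Aldoc* to *Aldoa*, -0.0304 to 0.32 for *Eno3* to *Eno1* plus *Eno1b*, -0.57 to 0.20 for *Hk2* to *Hk1*, -0.24 to 0.37 for *Pdk4* to *Pdk2*, -0.0685 to 0.21 for *Pfkl* to *Pfkm*, -0.51 to 0.16 for *Pfkp* to *Pfkm*, -0.28 to 0.36 for *Pgam2* to *Pgam1* and -0.0525 to 0.14 for *Suclg2* to *Sucla2*. Between states *Aldoc* to *Aldoa* ran from -4.34 to -3.0001.

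With 2 activated libraries per genotype and 3172164 to 5427280 reads each, differences between activated KO and WT libraries are measured less precisely than those between quiescent ones, and intervals from counts cover counting error only. Genes of the Y chromosome and *Xist* differed with the state, with the transcripts of males in quiescent and of females in activated libraries. Sex thus cannot be told apart from state. Whether the number of mice, their sex or the cell types in the sort had a part in the changes was not tested.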
